A study of Mus musculus with 6 samples.

Results

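The genes described here are 40 genes of autophagy and the lysosome, named as a list by their roles. Every probe whose gene symbol in the platform annotation was one of the 40 was taken, and a gene was kept when a probe for it had a detection p under 0.05 on at least 3 of the 6 arrays. By this rule 35 of the 40 genes were tested, among 9478 genes tested in all. Of the other 5 genes, Rb1cc1, Tfeb and Atg4a had probes that missed the detection rule, and Atg14 and Optn had no probe named for them in the annotation. The 35 genes were measured by 59 detected probes, out of 83 on the array for the list.

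The line, Mvt-1, was established from a mammary tumour of a mouse with mammary-directed Myc and Vegf transgenes, and all 6 samples are of this line. The cells were kept without serum for 16 h and then given vehicle or 10 nM insulin for 90 min, with 3 arrays per group. The comparison asked which transcripts move early when insulin reaches these tumour cells, in a study of the insulin receptor in breast cancer. It is 1 line in culture, and the labels leave unsaid whether each array of a group had a culture of its own. The p-values therefore set each group difference against the scatter of these 6 samples within their groups, and that scatter may be only technical. Of 9 epithelial markers, Krt8, Krt18, Krt14 and Cdh1 were detected, and Epcam, Krt19, Krt7, Krt5 and Cldn7 missed the detection rule. Krt14 and Cdh1 lay near the lowest detected signal. Krt14 was detected on 2 vehicle and 2 insulin arrays, and Cdh1 on 1 vehicle and 2 insulin arrays. Of 18 markers of other cell types, Pdgfra, Pdgfrb, Acta2, Col3a1 and Dcn were detected. Col1a1 and Hbb-bt missed the detection rule, and no immune, endothelial or fat cell marker with a probe was detected.

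In autophagy a cell encloses part of its own cytoplasm in a double membrane, the autophagosome, and delivers it to the lysosome for digestion. Starvation starts the process through the ULK kinase, and insulin opposes it by way of AKT and mTORC1. mTORC1 phosphorylates ULK1 and holds the transcription factors TFEB and TFE3 in the cytoplasm. AKT also keeps FOXO factors out of the nucleus, and in mouse muscle FOXO3 raises transcripts of autophagy genes such as Map1lc3b and Gabarapl1. Transcripts were measured here, and phosphorylation, lipidation and autophagic flux were not.

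TFEB and TFE3 bind the CLEAR element in promoters of lysosomal and autophagy genes. Promoter windows of RefSeq (GRCm38.p6), from 250 bases before to 50 bases after each annotated start, were found for 33 of the 40 genes. The core of the CLEAR element, TCACGTG or CACGTGA on the other strand, both of which contain the plain E-box CACGTG, stood in a window of 5 of these 33 genes (15.2%). Over all windows in the table the share was 3.77%, and over all their genes 4.29%. The 5 were Lamp1, Ctsd, Atg3, Atg7 and Atg14, and the full palindrome of the CLEAR element stood in 0 of 33. The FOXO core GTAAACA, or TGTTTAC on the other strand, stood in 0 of the 33, against 3.65% of all windows and 4.05% of all their genes. With so low a share over all genes, 0 of 33 says little. The 250 bases before the start are shown for the 4 of these genes that were tested, as the places in the list where a TFEB-type site can be read from the sequence. They run 5′ to 3′ on the strand of the gene, with capitals for each copy of the core, and overlapping copies run together.
Lamp1, chr8:13158911-13159160, plus strand: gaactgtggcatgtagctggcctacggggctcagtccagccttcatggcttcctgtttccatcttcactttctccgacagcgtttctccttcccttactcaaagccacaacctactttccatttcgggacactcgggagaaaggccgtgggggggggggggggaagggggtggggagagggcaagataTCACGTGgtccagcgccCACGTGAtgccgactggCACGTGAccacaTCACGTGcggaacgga
Ctsd, chr7:142387828-142388077, minus strand: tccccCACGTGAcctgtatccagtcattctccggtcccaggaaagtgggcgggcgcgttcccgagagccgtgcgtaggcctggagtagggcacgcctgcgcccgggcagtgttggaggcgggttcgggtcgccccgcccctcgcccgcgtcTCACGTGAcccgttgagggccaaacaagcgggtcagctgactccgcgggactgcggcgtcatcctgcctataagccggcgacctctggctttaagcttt
Atg3, chr16:45158579-45158828, plus strand: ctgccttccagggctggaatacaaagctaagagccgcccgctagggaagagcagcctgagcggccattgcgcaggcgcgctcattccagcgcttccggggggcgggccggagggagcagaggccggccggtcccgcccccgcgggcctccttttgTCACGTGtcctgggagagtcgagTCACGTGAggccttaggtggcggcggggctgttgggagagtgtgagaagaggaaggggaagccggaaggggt
Atg7, chr6:114670846-114671095, plus strand: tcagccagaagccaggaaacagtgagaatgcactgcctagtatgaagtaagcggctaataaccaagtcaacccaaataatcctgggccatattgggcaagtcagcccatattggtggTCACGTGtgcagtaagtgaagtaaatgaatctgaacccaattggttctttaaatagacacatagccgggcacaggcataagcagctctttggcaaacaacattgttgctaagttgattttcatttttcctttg
Lamp1 holds 4 separate copies of the core, which begin at -62, -45, -28 and -16 from its start. Ctsd and Atg3 hold 2 copies each and Atg7 holds 1. A match is a run of letters and not a measured binding site.

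None of the 35 genes passed the test for a change with insulin. Over all genes tested, 44 of 9478 passed, which is 0.464%, in limma's moderated test with Benjamini-Hochberg adjustment at 0.05, 0.127% higher and 0.338% lower, and for the 35 genes the count was 0 higher and 0 lower. The lowest adjusted p of any of the 35 was 0.202, for Atg16l1 and Pik3c3 alike. Before adjustment, 2 of the 35 had a p under 0.05 with a higher value (against 4.80% of all genes) and 4 with a lower one (against 6.15%), together 17.1%. The 3 insulin arrays lay wholly on one side of the 3 vehicle arrays in 8 of the 35 (22.9%), against 15.9% of all genes, with 4 of them higher (6.59% of all genes) and 4 lower (9.34%). These shares lie near the background and were not taken as a result about the list.

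Changes are given as log2 intensity with insulin minus vehicle, after background correction and normalization, with the standard error and 3 arrays per group. On this scale a detected signal began at about 4.44, and values of different probes are not compared with each other. The median change of the 35 was -0.036 (SD over genes 0.19), beside a median of -0.015 (SD 0.19) over all genes tested. They ranged from -0.44 to 0.43, and 20 were below 0 (57.1%), as were 54.0% of all genes. The smallest change that passed anywhere on the array was 0.58. The 95% interval of the change, for the probe used for each gene, lay within a 1.5-fold difference either way for 28 of the 35. Over all genes this share was 87.9%. With these probes a change of 1.5-fold or more lay inside the interval only for Pik3c3, Ulk1, Atg2a, Wipi2, Atg16l1, Nbr1 and Ctsd. Further probes were not covered, and those of Uvrag and Gabarapl2 gave 0.45 ± 0.19 and -0.34 ± 0.13. Among the 28, Pik3r4, Atg4b, Atg4c and Gabarapl2 lay near the lowest detected signal, which limits what their intervals can show. In these bulk RNA samples, fewer cells with a transcript and less of it per cell cannot be told apart.

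**Figure D1:**
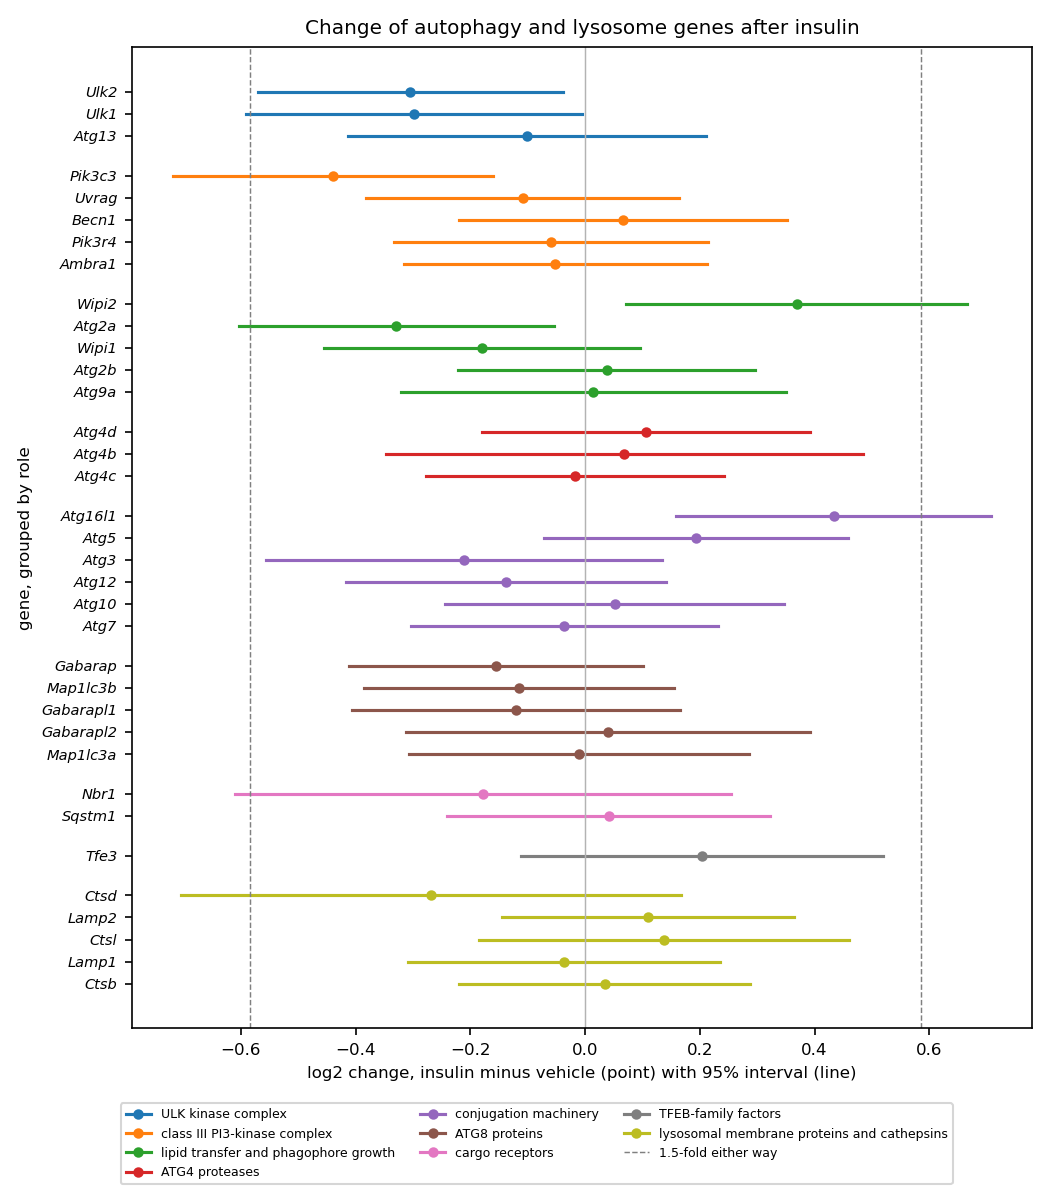
Log2 change with insulin (points) and its 95% interval (lines) for the 35 tested genes, coloured by role; the dashed lines mark a 1.5-fold difference either way. The points run from -0.44 for Pik3c3 to 0.43 for Atg16l1, and 28 of the intervals stay between the dashed lines.

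The ULK complex, the kinase that starts autophagy, was measured by 3 of its 4 genes, all with values below 0, although Atg13 lay at 0.013 without insulin replicate 3. Ulk2, a kinase related to ULK1, read 7.51, 7.74 and 7.64 on the vehicle arrays and 7.39, 7.36 and 7.23 on the insulin arrays. The insulin arrays all lay below the vehicle arrays, by -0.31 ± 0.13 (limma adjusted p = 0.396). Ulk1, the kinase that AMPK activates and mTORC1 inhibits, read 6.90, 6.65 and 7.01 with vehicle and 6.50, 6.74 and 6.42 with insulin. Here the groups overlapped, since insulin replicate 2 lay above vehicle replicate 2, and the difference was -0.30 ± 0.14 (adjusted p = 0.448). A further probe gave -0.37 ± 0.14 for Ulk2 and -0.28 ± 0.16 for Ulk1, so that all 4 probes for the kinases had values of like size below 0, none past the threshold. Atg13, the regulatory subunit, stood at -0.10 ± 0.15. Rb1cc1, the scaffold FIP200, was detected on 1 of 6 arrays by 1 of its 3 probes and on none by the others.

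The class III PI3-kinase complex makes the lipid PI3P on the growing membrane. Pik3c3, its catalytic subunit VPS34, read 8.12, 8.38 and 8.35 with vehicle and 7.84, 7.99 and 7.70 with insulin. The groups did not overlap, and the difference of -0.44 ± 0.13, a 1.36-fold lower level, was the lowest of the 35 (adjusted p = 0.202). It is measured by 1 probe, and over the alternative settings it ran from -0.52 to -0.36. The other members of the complex stood close to 0. Uvrag, a Beclin partner that acts in autophagosome and endosome maturation, read 9.49, 9.77 and 9.53 with vehicle and 9.46, 9.59 and 9.41 with insulin (-0.11 ± 0.13, adjusted p = 0.817). A further probe for Uvrag gave 5.54, 6.13 and 5.22 with vehicle and 6.05, 6.20 and 6.004 with insulin, or 0.45 ± 0.19, so that the probes had opposite signs. Becn1, the Beclin scaffold, stood at 0.067 ± 0.14, Pik3r4, the VPS15 subunit, at -0.060 ± 0.13, and Ambra1, a Beclin regulator, at -0.052 ± 0.12. Pik3r4 lay near the lowest detected signal, with means of 4.77 with vehicle and 4.71 with insulin, which limits what its value can show.

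The 5 genes of the next group act in membrane supply and growth, and here values of both signs were found. Wipi2, which reads PI3P and recruits ATG16L1, read 7.18, 7.10 and 7.21 with vehicle and 7.34, 7.82 and 7.43 with insulin. All insulin arrays lay above all vehicle arrays, with insulin replicate 2 the highest, and the difference was 0.37 ± 0.14 (adjusted p = 0.355). A further Wipi2 probe gave -0.046 ± 0.13 and did not share this difference. The value for Wipi2 was 0.22 without insulin replicate 2 and 0.16 when its probes were averaged. Atg2a, a lipid transfer protein, read 6.74, 6.50 and 6.72 with vehicle and 6.39, 6.18 and 6.40 with insulin, with no overlap (-0.33 ± 0.13, adjusted p = 0.373). Its further probes gave -0.29 ± 0.16 and -0.071 ± 0.14. Without vehicle replicate 1 another Atg2a probe became the brightest and gave -0.18, while the probe used here gave -0.29. Wipi1, another PI3P reader, stood at -0.18 ± 0.13, Atg2b at 0.038 ± 0.12, and Atg9a, the membrane protein of the seed vesicles, at 0.014 ± 0.16. The further probes for Wipi1 gave 0.16 ± 0.15 and 0.18 ± 0.16, opposite in sign to the probe used. The probe at 0.18 was dim, with means of 4.37 and 4.55, and was detected on 1 vehicle and 2 insulin arrays.

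The conjugation machinery joins ATG8 proteins to lipid, and all 6 of its genes were tested. Atg16l1, which places the ATG12-ATG5 enzyme on the membrane, read 7.92, 7.68 and 7.62 with vehicle and 8.14, 8.27 and 8.11 with insulin. Its insulin arrays all lay above its vehicle arrays, and the difference of 0.43 ± 0.13, 1.35-fold, was the highest of the 35 (adjusted p = 0.202). It rests on 1 detected probe, since the other probe for Atg16l1 missed the detection rule, and ran from 0.35 to 0.52 over the alternative settings. Atg5 read 8.69, 8.78 and 8.79 with vehicle and 8.86, 8.88 and 9.10 with insulin, without overlap, at 0.19 ± 0.13 (adjusted p = 0.622). A further Atg5 probe gave -0.0049 ± 0.14. That probe became the brightest without insulin replicate 3, where it gave 0.0018 and the probe used here 0.12. Atg3, the E2-type enzyme whose promoter carries 2 CLEAR cores, stood at -0.21 ± 0.16, and Atg12, the ubiquitin-like partner of ATG5, at -0.14 ± 0.13. A further probe for Atg3 was detected on 0 vehicle and 3 insulin arrays, with means of 4.26 and 4.55. It met the detection rule through the insulin arrays alone, so no direction is read from it. Atg10, the E2-type enzyme for ATG12, stood at 0.052 ± 0.14, and Atg7, the E1-type enzyme with 1 core, at -0.036 ± 0.13.

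The ATG4 proteases trim ATG8 proteins before conjugation and release them afterwards. Atg4d read 5.42, 5.74 and 5.86 with vehicle and 5.77, 5.79 and 5.78 with insulin (0.11 ± 0.14, adjusted p = 0.836). Atg4b read 5.09, 4.35 and 4.82 with vehicle and 5.28, 4.50 and 4.68 with insulin (0.068 ± 0.20, adjusted p = 0.943). The groups overlapped for both genes, and Atg4b varied more within a group than between groups. Atg4c stood at -0.017 ± 0.12. Atg4b and Atg4c were the only tested genes of the 35 whose probe was detected on fewer than 6 arrays, and Atg4a was detected on none.

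**Figure D2:**
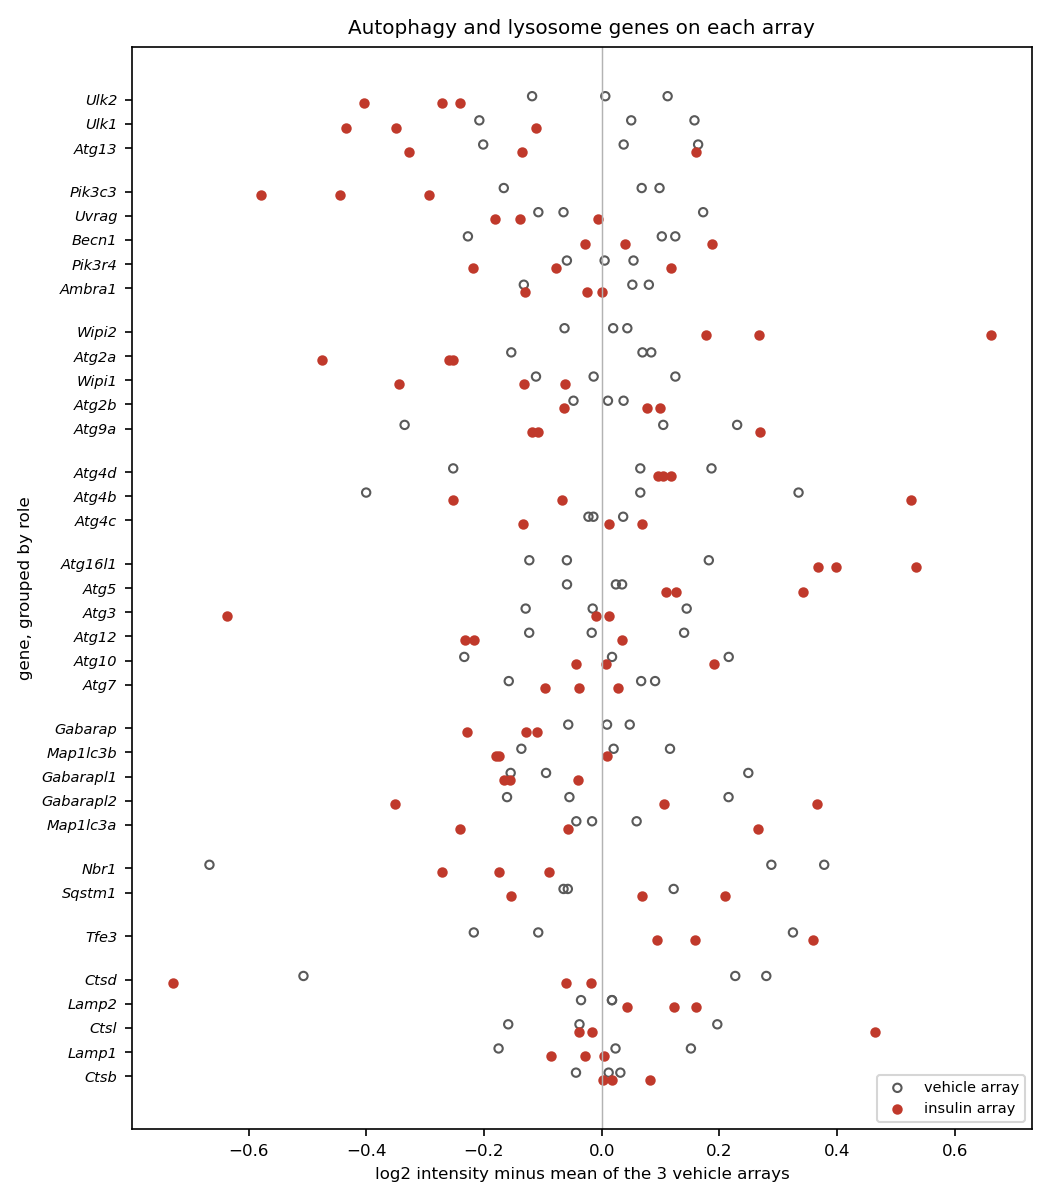
Log2 intensity on each array minus the mean of the 3 vehicle arrays, for the 35 tested genes grouped by role; open circles are vehicle arrays and filled circles insulin arrays. The colours separate for 8 genes, among them Pik3c3, Ulk2, Atg2a and Gabarap to the left and Atg16l1, Wipi2, Atg5 and Lamp2 to the right, and mix for the others.

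The ATG8 proteins coat the autophagosome, and Map1lc3b encodes the LC3B protein that is widely used to mark it. Map1lc3b read 8.22, 8.32 and 8.07 with vehicle and 8.02, 8.21 and 8.03 with insulin. The groups overlapped, at -0.12 ± 0.13 (adjusted p = 0.803, 95% interval -0.39 to 0.16). Gabarapl1, like Map1lc3b a transcript that FOXO3 raises in mouse muscle, read 9.44, 9.09 and 9.03 with vehicle and 9.03, 9.02 and 9.15 with insulin. Vehicle replicate 1 stood above the other 5 arrays, which lay within a narrow range (-0.12 ± 0.14, adjusted p = 0.805, interval -0.41 to 0.17). Without that array the difference for Gabarapl1 was 0.0044. Gabarap read 10.90, 10.79 and 10.86 with vehicle and 10.72, 10.62 and 10.74 with insulin. Its groups did not overlap but differed by only -0.16 ± 0.12 (adjusted p = 0.694). Map1lc3a read 8.09, 8.07 and 8.17 with vehicle and 8.38, 8.05 and 7.87 with insulin (-0.010 ± 0.14, adjusted p = 0.991). Here the insulin arrays were spread on either side of the vehicle arrays. Gabarapl2 read 5.17, 4.90 and 4.79 with vehicle and 4.60, 5.32 and 5.06 with insulin (0.040 ± 0.17, adjusted p = 0.965). A further probe for Gabarapl2, detected on 3 vehicle and 2 insulin arrays, gave -0.34 ± 0.13 (adjusted p over probes 0.409), so the probes differed in sign.

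Cargo receptors tie ubiquitinated material to ATG8 proteins. Sqstm1, which encodes p62, read 11.23, 11.05 and 11.04 with vehicle and 11.18, 11.32 and 10.95 with insulin (0.041 ± 0.13, adjusted p = 0.950, 95% interval -0.24 to 0.32). The groups overlapped fully. Nbr1, a related receptor, read 5.77, 6.73 and 6.82 with vehicle and 6.26, 6.17 and 6.35 with insulin (-0.18 ± 0.20, adjusted p = 0.810). Vehicle replicate 1 was the lowest of all 6 arrays for Nbr1, and without it the difference was -0.51, still short of the threshold (adjusted p = 0.229). Without vehicle replicate 3 it was 0.0081, so that single arrays decide the value for Nbr1.

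Among the transcription factors of the TFEB family, Tfe3 read 6.52, 6.63 and 7.06 with vehicle and 7.10, 6.83 and 6.90 with insulin. The highest vehicle array lay within the insulin range, and the difference was 0.20 ± 0.15 (adjusted p = 0.675). It was 0.095 without vehicle replicate 1 and 0.36 without vehicle replicate 3. Tfeb was detected on 1 of 6 arrays by 1 of its 2 probes and on none by the other.

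The lysosomal genes had narrow intervals around 0 where the probe was bright. Ctsb, which encodes the protease cathepsin B, read 12.47, 12.39 and 12.45 with vehicle and 12.44, 12.45 and 12.52 with insulin (0.034 ± 0.12, adjusted p = 0.956, 95% interval -0.22 to 0.29). Lamp1, a main glycoprotein of the lysosomal membrane with 4 CLEAR cores in its promoter, read 11.36, 11.04 and 11.23 with vehicle and 11.12, 11.18 and 11.21 with insulin (-0.037 ± 0.13, adjusted p = 0.956, interval -0.31 to 0.23). For Lamp1 the insulin arrays all lay within the vehicle range, and for Ctsb only insulin replicate 3 lay above it. Lamp2, needed for fusion with the autophagosome, read 11.21, 11.27 and 11.27 with vehicle and 11.41, 11.29 and 11.37 with insulin. These groups did not overlap but differed by 0.11 ± 0.12 (adjusted p = 0.801), and the 6 further probes for Lamp2 ran from -0.12 to 0.25. The probe at 0.25 was dim, with means of 4.40 and 4.65, and was detected on 1 vehicle and 3 insulin arrays. Ctsd, the aspartic protease cathepsin D, read 5.70, 4.97 and 5.76 with vehicle and 4.75, 5.46 and 5.42 with insulin (-0.27 ± 0.21, adjusted p = 0.690). Vehicle replicate 2 and insulin replicate 1 were low for Ctsd, which gave it the widest error of the 35. The difference for Ctsd was -0.52 without the former and -0.037 without the latter. Ctsl, the protease cathepsin L, read 5.54, 5.41 and 5.77 with vehicle and 5.56, 5.54 and 6.04 with insulin (0.14 ± 0.15, adjusted p = 0.803). Insulin replicate 3 was its highest array, and the other insulin arrays lay within the vehicle range.

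**Figure D3:**
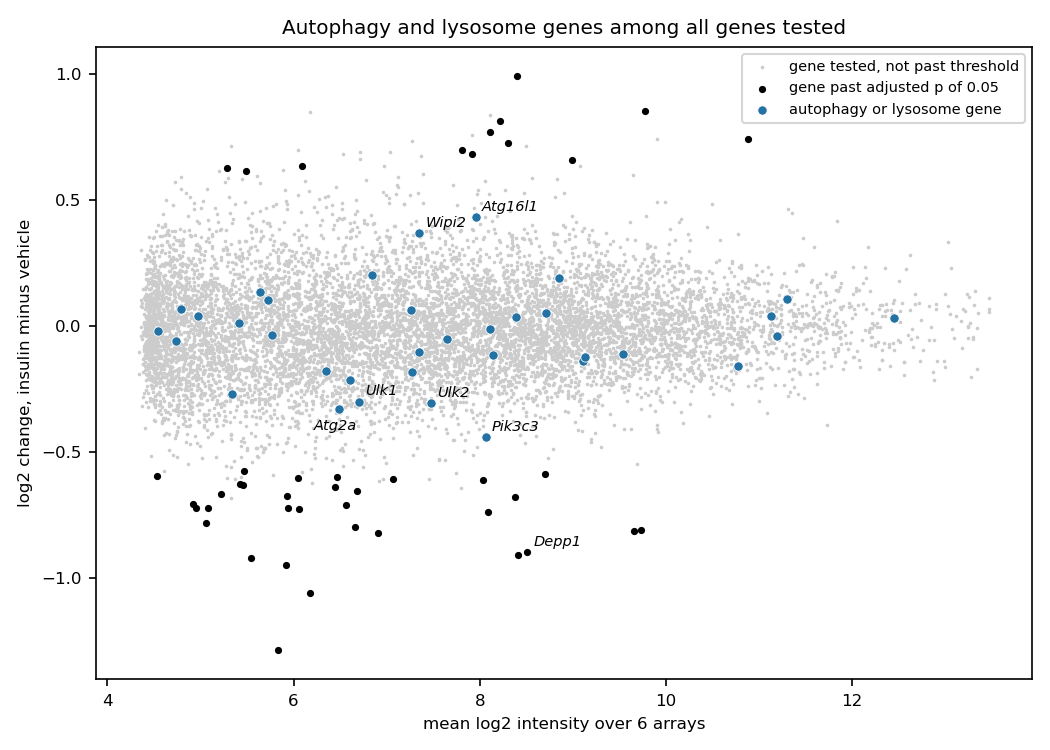
Log2 change with insulin against the mean log2 intensity over the 6 arrays, for the 9478 genes tested (grey), the 44 past the threshold (black) and the 35 autophagy and lysosome genes (blue). The blue points lie inside the grey cloud at every intensity, and the named ones have an unadjusted p under 0.05, apart from Depp1, a gene of a further list that passed.

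The tested genes with a CLEAR core, Lamp1, Ctsd, Atg3 and Atg7, all had values below 0, at -0.037, -0.27, -0.21 and -0.036, and none passed, while 54.0% of all genes tested were below 0. These signs did not hold for 3 of the 4. Lamp1 lay at 0.038 without vehicle replicate 1, Atg7 at 0.010 without vehicle replicate 2, and Atg3 just above 0 without insulin replicate 1. The averaged probes of Atg3 gave 0.041, but take in the probe that met the detection rule through the insulin arrays alone. That value is not read as a turn of sign. The median of the 4 was -0.12, beside -0.036 for the whole list.

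Probes for the same gene gave a further reading of the spread. Of the 35 genes, 16 had more than 1 detected probe, with 24 further probes among them. Of these, 11 had the sign of the probe used and 13 the opposite sign. The 13 include the Atg3 probe that met the detection rule through the insulin arrays alone, from which no direction is read. They also include a Wipi1 probe detected on only 1 vehicle and 2 insulin arrays. The 11 include dim Lamp2 probes as well. The one at 0.17 was detected on 1 vehicle and 2 insulin arrays, and the one at 0.25 on 1 vehicle and 3 insulin arrays. Over probes, 0 of the 59 passed, against 0.120% of the 15007 detected probes with a single gene. Of the 59, 9 had an unadjusted p under 0.05, against 10.1% of those 15007 probes. That Atg3 probe is among the 9. The lowest adjusted p over probes was 0.272. In the fit over genes, Ulk1, Ulk2 and Atg2a were the genes at an unadjusted p under 0.05 whose further probes all had the same sign. Wipi2 was the one whose further probe did not, and Pik3c3 and Atg16l1 had none. In the limma fit over probes the Ulk1 probe used had an unadjusted p of 0.054. Probes of a gene can read different transcripts, which was not tested.

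**Figure D4:**
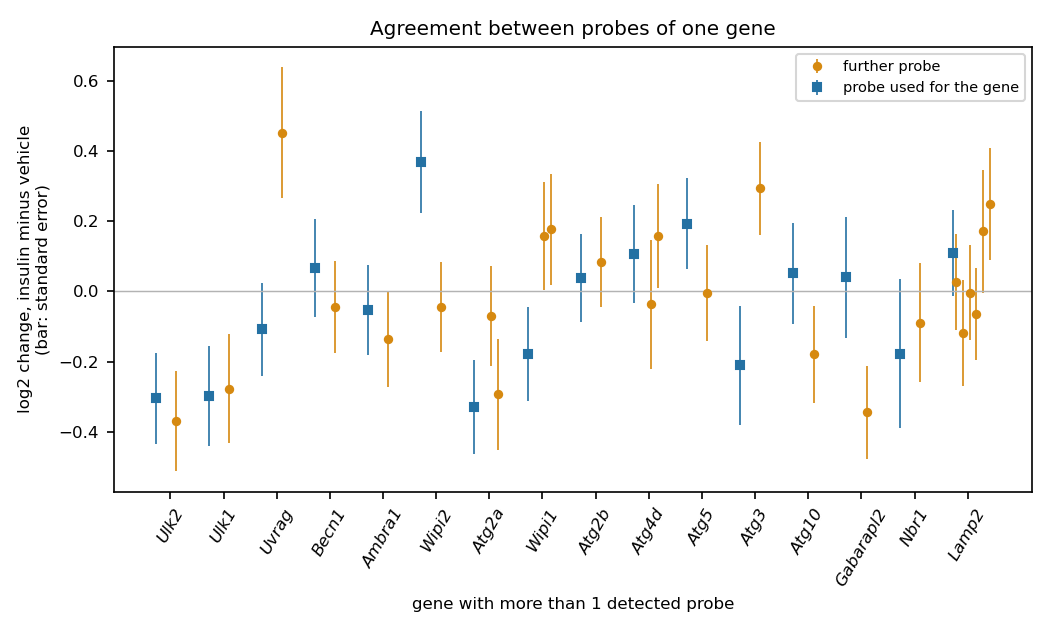
Log2 change with insulin and its standard error (bars) for each detected probe of the 16 genes with more than 1, with the probe used for the gene as a square and further probes as circles. Squares and circles lie together below 0 for Ulk1 and Ulk2 and on opposite sides of 0 for Uvrag, Wipi1 and Gabarapl2.

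Further genes of the pathway were read from 4 lists that do not overlap with the 40. Of 85 genes tested there, out of 102 listed, 1 fell and 0 rose, against 0.464% called over all genes. The 1 that fell was Depp1, a target of FOXO factors with a reported role in autophagy. It read 8.83, 8.98 and 9.06 with vehicle and 8.07, 8.21 and 7.91 with insulin, with no overlap (-0.90 ± 0.13, adjusted p = 0.0058). The Depp1 call was known from an earlier account of these data, and it was lost without vehicle replicate 3 (adjusted p = 0.0659) and without the detection filter (adjusted p = 0.0953).

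For the further lists, the background over all genes tested was a median change of -0.015 with 54.0% below 0, and no list was tested as a set. Among the 26 other autophagy factors tested, the median was -0.047 and 18 values were below 0. Besides Depp1, those with the smallest p were Wdfy3, the scaffold ALFY for protein aggregates, at 0.45 ± 0.15, and Calcoco1, a receptor for autophagy of the endoplasmic reticulum, at -0.47 ± 0.18. Neither passed (adjusted p = 0.278 and 0.371), and the change for Wdfy3 was 0.18 when its 2 detected probes were averaged. Of 36 further lysosomal hydrolases and membrane proteins, 0 passed, 26 were below 0 and the median was -0.074. Those with the smallest p were Lipa, the acid lipase, at 0.34 ± 0.13, Lgmn, the protease legumain, at -0.29 ± 0.13, and Ctso, cathepsin O. Lipa lay near the lowest detected signal, with means of 4.47 with vehicle and 4.81 with insulin. It was detected on 2 vehicle and 3 insulin arrays, and its change was 0.11 with the authors' deposited values. Ctso was detected on 0 vehicle and 3 insulin arrays, with means of 4.31 and 4.63, and entered the test through the insulin arrays alone, so its place by p follows from the filter and no direction is read from it. Of 15 subunits and accessory proteins of the V-ATPase, the proton pump that acidifies the lysosome, 0 passed and 10 were above 0, with a median of 0.047. The one with the smallest p was Atp6v0a2, at 0.26 ± 0.14, followed by Atp6v0e at -0.21 ± 0.14 and Atp6v0a1 at 0.15 ± 0.14. Of 8 regulators of TFEB at the lysosome, 0 passed. Fnip1, a partner of folliculin, stood at 0.29 ± 0.12 (adjusted p = 0.404), with all insulin arrays above all vehicle arrays, Rragc, a Rag GTPase, at 0.11 ± 0.13 and Lamtor4, a Ragulator subunit, at -0.098 ± 0.12. The CLEAR core stood in the promoter windows of 22 of 81 genes of these lists (27.2%), and 21 of the 22 were tested, with 0 called, 8 above 0 and 13 below 0. The FOXO core stood in 0 of the 81, Depp1 among them. Its share over all genes with a window was 4.05%.

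**Figure D5:**
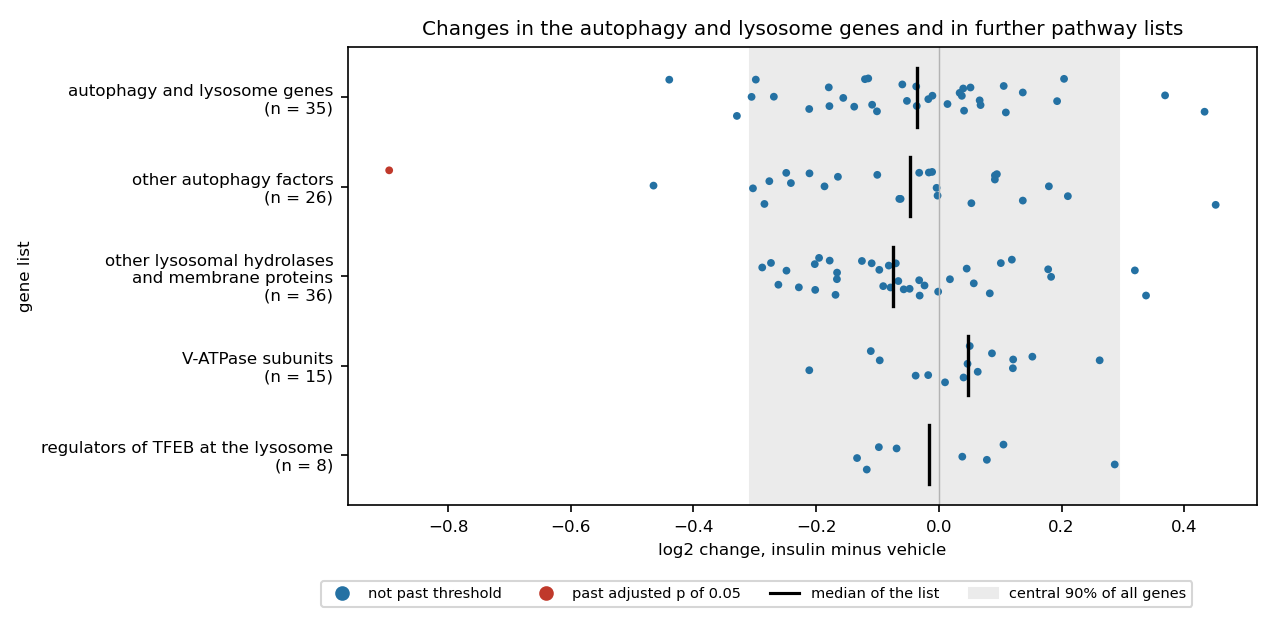
Log2 change with insulin for the 35 genes and for the tested genes of 4 further lists (points, spread vertically for display), with list medians as black bars and the central 90% of all genes tested, from -0.31 to 0.29, shaded. Depp1, at -0.90, is the one point past the threshold, and the 5 medians lie between -0.074 and 0.047.

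The arrays gave no order to the list either. The median over the 35 genes of the deviation from the vehicle mean was 0.020, -0.055 and 0.035 on the vehicle arrays and -0.064, -0.018 and -0.039 on the insulin arrays, so that vehicle replicate 2 lay among the insulin arrays. Insulin replicate 3 held the lowest value of the 6 for 10 of the 35 genes and the highest for 6. The median SD between arrays of a group was 0.14 for the 35 genes and 0.16 for all genes tested. Between 38.9% and 40.3% of probes were detected per array, and pairs of arrays correlated over the genes tested at r = 0.988 to 0.992.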

How the data were processed

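RNA from 3 vehicle and 3 insulin samples was labelled and hybridised to Illumina mouse beadchips of 45281 probes. GenomeStudio is named in the submitters' processing notes, without a version. The deposited table holds non-normalized signal intensity per probe and array with a detection p-value, per the file headers. A second deposited table holds the authors' processed signal intensity, which equals a quantile normalization of the first to within rounding and served as an alternative.

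Here intensities were background-corrected and quantile-normalized with neqc (limma 3.58.1, R 4.3.3, offset 16) and put on the log2 scale. Probes with a detection p under 0.05 on at least 3 arrays were kept, 15007 of them with a single annotated gene. The brightest probe stood for its gene, which gave 9478 genes. All were fitted with lmFit and eBayes, insulin against vehicle, and p-values were adjusted by Benjamini-Hochberg over all of them. Intervals are at 95%. The fit was tested on simulated data. The number of arrays limits the precision.

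The genes, their role lists and the further lists were chosen with earlier results of these data known. Array values are given for the 2 genes of smallest p in each of 9 roles, all ATG8 and lysosomal genes, those whose groups did not overlap, and Depp1. From the further lists the genes past the threshold and up to 3 of smallest p are named. Alternatives covered background, normalization, filter, probe choice, variance model, a replicate block and leaving out each array. Promoter sequences are from RefSeq, GRCm38.p6.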

Additional observations from a re-analysis of the deposited data

How the results depend on the processing

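None of the 35 genes passed under any of the 15 alternatives, and the lowest adjusted p was 0.103, for Pik3c3 with a trended and robust variance. The median of the genes stayed between -0.040 and -0.014. The number with groups that did not overlap was 8 (against 15.9% of all genes), 7 with median scaling (15.7%) and 5 when the probes of a gene were averaged (16.4%). It ran from 8 to 13 when single arrays were left out, where the share over all genes also rose, to between 24.2% and 27.8%. Of 523 values of single genes, 30 turned sign, and these belonged to 20 of the 35 genes, so that 15 kept their sign throughout. Among the 20, Uvrag went from -0.11 to 0.17 and Gabarapl2 from 0.040 to -0.15 with the mean of probes, which differ in sign. In the same setting Wipi1 became 0.052 and Atg3 0.041. For Atg3 that mean takes in the probe detected on the insulin arrays alone, so its sign is not read. Atg3 ran from -0.33 to 0.00094 when single arrays were left out, the latter without insulin replicate 1, its lowest array. Pik3c3 and Atg16l1 kept an unadjusted p under 0.05 in 15 of 15 alternatives. Leaving out an array changed the brightest probe of Atg2a and Atg5, and keeping the first probe, an alternative chosen after seeing the data, turned no sign.

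The count over all genes, 44 (12 higher and 32 lower), moved more. It was 29 (13 and 16) with normexp fitted to the signals, 28 (12 and 16) with an offset of 50, 22 (11 and 11) with the authors' deposited values, 83 (34 and 49) with a trended and robust variance and 0 in limma without the detection filter, where 8.63% of 19057 genes had an unadjusted p under 0.05. It ran from 3 without vehicle replicate 3 to 69 without insulin replicate 3, and the cause was not tested. The replicate block gave 75 calls, none among the 35 genes. Deviations from the group means correlated at 0.090, 0.15 and 0.13 between same-numbered arrays and at -0.11 to -0.017 between the others, so that each array correlated best with its own number, a hint from the data that the labels do not state. A slide block was not run, since the files used here give no slide. Signals near background, as for Atg4b and Atg4c, which missed detection on an array, limit what their values can show.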
